A study of Mus musculus with 21 samples.

Results

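Glucocorticoid signalling was followed through 9 genes in mice on control chow and in mice whose diet was restricted in methionine (MR), an essential sulfur amino acid. They are the receptor gene Nr3c1, the hormone-activating enzyme gene Hsd11b1, and the target genes Fkbp5, Tsc22d3, Sgk1, Klf9, Zbtb16, Mt1 and Mt2. The 9 genes were found by symbol among the 13509 genes listed for CD8+ T cells, the 15507 for MC38 and the 15184 for BPD6. Fkbp5, Tsc22d3 and Hsd11b1 were chosen by their higher level with MR in these same libraries (the same counts that are given here). The diet differences of these 3 are therefore given as a description with no test, and tests are reported for the other 6 genes.

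RNA sequencing covered 21 libraries. CD8+ T cells, the cytotoxic T cells, came from the spleen of control mice (3 libraries) and MR mice (3 libraries). Tumors of MC38, a mouse colon carcinoma line, gave 4 control and 4 MR libraries, and tumors of BPD6, a mouse melanoma line, gave 4 control and 3 MR libraries. Strain, genotype, age and length of feeding are not stated in the labels, and neither is whether each library is a separate animal, so p-values measure only the spread between these samples. The study's design speaks of tumors and its sample labels of tumor cells, and markers of fibroblasts and macrophages were present in every tumor library. The data do not assign the fibroblast marker RNA to host cells or tumor cells. In such bulk RNA, fewer cells of a type and less RNA per cell cannot be told apart.

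Glucocorticoids, chiefly corticosterone in mice, are adrenal steroids released in stress and in a daily rhythm, and they restrain T cells and inflammation. The receptor waits in the cytosol in a complex with the chaperone Hsp90 and its cochaperones. With hormone bound it enters the nucleus, binds response elements in DNA and induces target genes, among them its own brake Fkbp5. Tissues also set their own exposure, because the enzyme encoded by Hsd11b1 regenerates active hormone from its inert keto form.

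Each library held between 15733774.5 and 24129562.5 estimated counts. Levels are given as CPM, read counts relative to library size after TMM scaling within a table, and differences as log2 fold changes of MR over control with their standard error (SE). The test was the quasi-likelihood test of edgeR, passed where the p adjusted over all tested genes was under 0.05. The summed level of 7 listed T cell markers was 4720 to 5130 CPM in control and 4270 to 4620 CPM in MR CD8+ T cell libraries. In BPD6 the pigment genes Tyr, Dct, Mlana and Tyrp1 were not listed. The other 3 of 7 melanocyte markers, Mitf, Pmel and Sox10, were listed there. They summed to 16.7 to 27.6 CPM in control and 24.6 to 28.6 CPM with MR. In MC38 the intestinal gene Cdx2 was not listed, and the other 6 of 7 colon epithelium markers were. Those summed to 5.11 to 23.0 CPM in control and 5.82 to 82.0 CPM with MR.

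Of the 3 genes picked for their rise, Fkbp5 in CD8+ T cells and Hsd11b1 in both tumor models had the largest ratios of MR to control means. Fkbp5 was also 1.28 times as high with MR in MC38, and 0.946 times in BPD6. Fkbp5 stood at 68.0 ± 15.1 CPM in control and 147 ± 34.3 CPM in MR CD8+ T cells (SD, n = 3 each). Hsd11b1 stood at 2.28 ± 0.44 and 4.93 ± 2.49 CPM in MC38 (SD, n = 4 each), and at 2.88 ± 0.82 (n = 4) and 5.68 ± 0.77 CPM (n = 3) in BPD6. Tsc22d3 was 1.32 times as high with MR in MC38 and 1.29 times in BPD6, against 1.07 times in CD8+ T cells. Of the other 6 genes, none passed edgeR in any material. Some of their means were higher with MR as well, such as Zbtb16 in MC38 (3.09 times, from 0.56 CPM) and Klf9 in CD8+ T cells (1.59 times). Others were lower, such as Zbtb16 in CD8+ T cells (0.415 times).

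**Figure D1:**
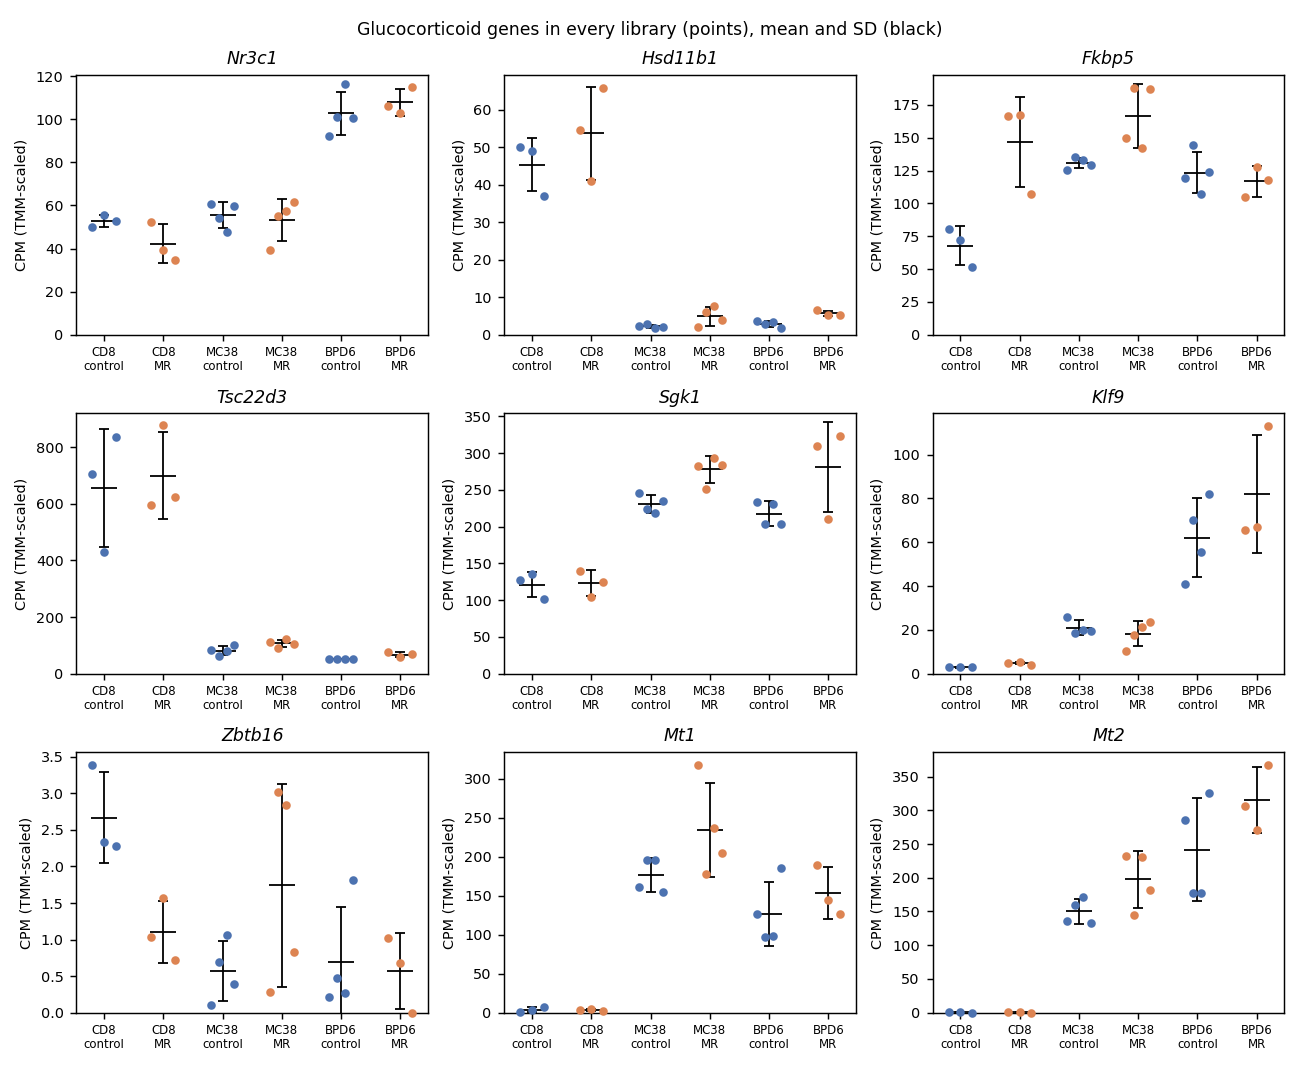
Level of each of the 9 genes (y axis, TMM-scaled CPM, from 0) in every library (points) by material and diet (x axis), with the mean and SD of each group in black (control blue, MR orange). Fkbp5 in CD8+ T cells has all MR points above all control points, while Mt1 and Mt2 are near 0 in CD8+ T cells and above 90 CPM in every tumor library.

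Of the 6 genes that were not picked, edgeR tested 5 in CD8+ T cells and 6 in each tumor model. At an unadjusted p under 0.05 there were 1 in CD8+ T cells (Zbtb16), 3 in MC38 (Sgk1, Mt1 and Mt2) and 1 in BPD6 (Sgk1). DESeq2 called 0 in CD8+ T cells, 1 in MC38 (Sgk1) and 0 in BPD6, and limma-voom called 0 in all 3. Over all listed genes DESeq2 called 559 of 13509 in CD8+ T cells, 406 of 15507 in MC38 and 1 of 15184 in BPD6. For comparison, edgeR called 1.41% of all tested genes in CD8+ T cells (0.591% higher and 0.818% lower with MR), 0% in MC38 and 0% in BPD6. At an unadjusted p under 0.05 the share of all tested genes was 17.3% in CD8+ T cells (8.5% higher, 8.83% lower), 14.1% in MC38 (7.3% higher, 6.81% lower) and 1.85% in BPD6 (1.07% higher, 0.78% lower). The difference between the tumor models in their response had 0% of genes past edgeR and 5.2% at an unadjusted p under 0.05.

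The receptor gene came first in the pathway. Nr3c1 (chromosome 18, 39410545 to 39519421, GRCm38) encodes the glucocorticoid receptor. CD8+ T cells measured 49.9, 55.4 and 52.8 CPM in control replicates 1 to 3 and 52.2, 39.5 and 34.7 CPM in MR replicates 1 to 3. MR replicates 2 and 3 lay below every control library and MR replicate 1 among them. The log2 fold change was -0.32 ± 0.17 (edgeR adjusted p = 0.339).

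In MC38, Nr3c1 measured 60.7, 54.0, 47.6 and 59.6 CPM in the controls and 39.5, 55.03, 57.2 and 61.7 CPM with MR. MR replicate 1 was the lowest library and the diets overlapped, and MR over control was -0.06 ± 0.14 on the log2 scale (edgeR adjusted p = 0.868). BPD6 tumors held 102.7 ± 10.1 CPM in control (SD, n = 4) and 108 ± 6.22 CPM with MR (n = 3), or 0.07 ± 0.10 on the log2 scale (edgeR adjusted p = 0.9997). The response of Nr3c1 to the diet did not differ between the tumor models past the test (MC38 minus BPD6 -0.13 ± 0.19, edgeR adjusted p = 0.912). The 3 tables name different Nr3c1 transcripts, so its levels are set side by side between materials without ranking.

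Hsd11b1 (chromosome 1, 193221640 to 193264045) encodes the reductase that reactivates glucocorticoids inside cells, and is known from liver, fat and connective tissue. CD8+ T cells measured 50.2, 48.9 and 37.1 CPM in control and 54.7, 40.9 and 65.7 CPM in MR libraries, and the diets overlapped. The log2 fold change there was 0.24 ± 0.18. Leaving out single libraries moved it between 0.07 (without MR replicate 3) and 0.41 (without MR replicate 2).

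In MC38 tumors Hsd11b1 measured 2.30, 2.87, 1.82 and 2.13 CPM in control and 2.001, 5.96, 7.77 and 3.99 CPM in MR replicates 1 to 4. MR replicates 2, 3 and 4 lay above every control library, and MR replicate 1 lay within the control range. The log2 fold change was 1.11 ± 0.39. In BPD6 the control libraries measured 3.58, 2.80, 3.39 and 1.76 CPM and the MR libraries 6.58, 5.27 and 5.21 CPM. All 3 MR libraries lay above all 4 control libraries, with a log2 fold change of 0.98 ± 0.28. In BPD6 3.4% of all tested genes had no overlap, 1.5% with MR higher. The tables give the same Hsd11b1 transcript for CD8+ T cells and MC38, where control cells held 45.4 ± 7.18 CPM and control tumors 2.28 ± 0.44 CPM.

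Markers of fat cells, macrophages and T cells had higher sums in most MR libraries of MC38. The summed level of the 8 fat cell markers, Adipoq and Plin1 among them, came to 14.4, 60.0, 57.7 and 26.9 CPM in MC38 controls and 214.7, 381, 384 and 29.7 CPM in MR replicates 1 to 4. All 7 tested fat markers were higher with MR in MC38 (median log2 fold change 3.12), and 0 passed edgeR. The 9 macrophage markers summed to 574 to 1140 CPM in MC38 controls and 770 to 2070 CPM with MR, with 9 of 9 higher and 0 past edgeR. The 7 T cell markers summed to 15.8 to 29.0 CPM in MC38 controls and 16.5 to 77.8 CPM with MR. All 7 were higher with MR and 0 passed edgeR. Hsd11b1 was highest in MR replicates 2 and 3, which also had the highest fat, macrophage, fibroblast and T cell sums.

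In BPD6 the fat sums were 18.8, 11.5, 33.0 and 17.5 CPM in control and 55.4, 49.96 and 9.58 CPM in MR replicates 1, 2 and 4. MR replicate 4 had the lowest fat sum of the 7 libraries, while its Hsd11b1 level of 5.21 CPM was above every control library. Fibroblast sums overlapped between diets in MC38 (1010 to 1740 and 1020 to 2340 CPM) and in BPD6 (4960 to 11600 and 4620 to 10200 CPM). They were highest in MR replicates 2 and 3 of MC38 (2337 and 2241 CPM). In BPD6 the highest were control replicate 3 (11619 CPM) and MR replicate 1 (10150 CPM). T cell sums overlapped between diets in BPD6 (2.08 to 17.0 and 5.99 to 18.7 CPM). The part of fat, macrophage, fibroblast and T cell RNA in the Hsd11b1 difference was not tested.

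**Figure D2:**
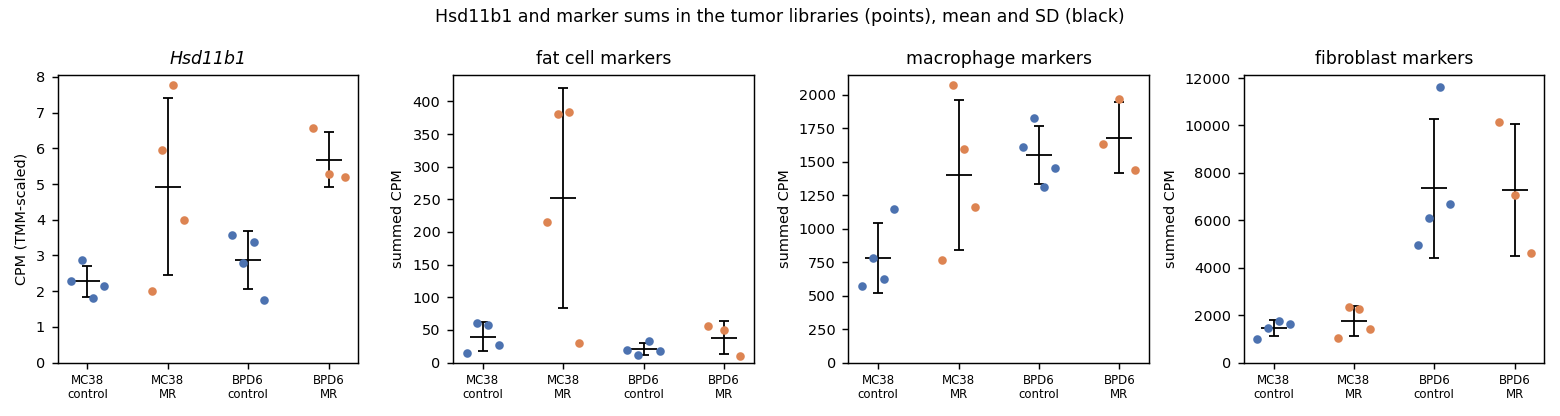
Hsd11b1 (first panel, TMM-scaled CPM) and the summed CPM of fat cell, macrophage and fibroblast markers (other panels) in the tumor libraries (points) by model and diet, with mean and SD in black (control blue, MR orange). In MC38 the MR library of lowest Hsd11b1, at 2.001 CPM, has a fat marker sum of 214.7 CPM, and in BPD6 the MR library with a fat marker sum of 9.58 CPM has 5.21 CPM of Hsd11b1.

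Fkbp5 (chromosome 17, 28398753 to 28486149) encodes a cochaperone of the receptor complex that lowers hormone binding, and is itself a sensitive target of the receptor. CD8+ T cells measured 80.6, 72.01 and 51.3 CPM in control and 166, 167 and 107 CPM in MR libraries. Every MR library was above every control library, and the log2 fold change was 1.11 ± 0.20. It ranged from 0.95 (without control replicate 3) to 1.29 (without MR replicate 3) when single libraries were left out. Diets did not overlap for 22.4% of all genes tested in these cells, 11.5% with MR higher and 10.9% with MR lower.

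In MC38, Fkbp5 measured 126, 135, 133 and 129 CPM in control and 149.7, 188, 142 and 187 CPM with MR. The diets did not overlap, as was the case for 8.76% of all tested genes (4.05% with MR higher, 4.72% lower), and the log2 fold change was 0.35 ± 0.11. BPD6 tumors measured 119, 144, 107 and 124 CPM in control and 105, 128 and 118 CPM with MR. They overlapped, with a log2 fold change of -0.08 ± 0.12, and the MR mean was the lower one.

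The tables name 1 Fkbp5 transcript for all 3 materials. Mean levels ran from 167 CPM (MC38, MR) through 147 (CD8+ T cells, MR), 131 (MC38, control), 123 (BPD6, control) and 117 CPM (BPD6, MR) to 68.0 CPM in control CD8+ T cells. Only the last step exceeded the SD of its neighbours: control CD8+ T cells were apart from the other groups, and the first 5 groups each lay within 1 SD range of the next. These levels come from separate tables and were not tested against each other.

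Tsc22d3 (chromosome X, 140539528 to 140600522) encodes GILZ, a leucine zipper protein that carries part of the anti-inflammatory action of glucocorticoids. CD8+ T cells measured 707, 429 and 836 CPM in control and 597, 878 and 626 CPM in MR libraries. The diets overlapped widely, and the log2 fold change was 0.09 ± 0.23. It changed sign without control replicate 2 (-0.14) or without MR replicate 2 (-0.10). In MC38 the values were 82.5, 62.2, 80.2 and 99.8 CPM in control and 110.4, 91.4, 122 and 106 CPM with MR, a log2 fold change of 0.40 ± 0.15. MR replicate 2 of MC38 lay below control replicate 4, and the other 3 MR tumors lay above every control tumor. T cell markers were higher with MR in MC38 (7 of 7). Their sums were 20.9, 15.8, 17.7 and 29.0 CPM in control and 16.5, 48.9, 77.8 and 34.2 CPM in MR replicates 1 to 4. The part of T cell RNA in the Tsc22d3 difference was not tested.

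BPD6 control tumors were close together for Tsc22d3, at 51.7, 53.5, 51.7 and 52.7 CPM, and the MR tumors measured 75.8, 58.2 and 69.1 CPM. All 3 MR tumors were above all 4 controls, with a log2 fold change of 0.37 ± 0.11. In BPD6 3.4% of all tested genes had no overlap, 1.5% with MR higher and 1.9% lower. The tables name a different Tsc22d3 transcript in each material, NM_010286 in CD8+ T cells, NM_001077364 in MC38 and NR_122039 in BPD6. In GENCODE the MC38 transcript starts at 140600659 on the minus strand and the CD8 transcript at 140543187. Whether a count covers the other transcripts is not given in the sources used here, so Tsc22d3 was compared within a material only.

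**Figure D3:**
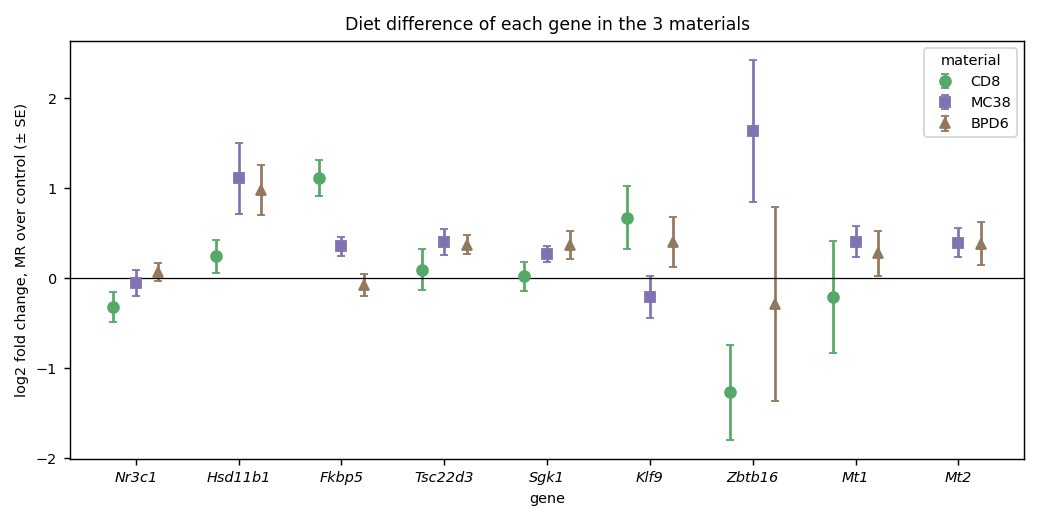
Log2 fold change of MR over control (y axis, ± SE) of each of the 9 genes (x axis) in CD8+ T cells (circles), MC38 (squares) and BPD6 (triangles). Fkbp5 is highest in CD8+ T cells at 1.11, Hsd11b1 is near 1 in both tumor models, and Mt2 has no CD8 value because it was too low to be tested.

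Sgk1 (chromosome 10, 21882184 to 21999903) encodes a kinase that regulates ion channels and transporters and is induced by glucocorticoids and by mineralocorticoids. MC38 tumors measured 246, 224, 218 and 235 CPM in control and 283, 252, 294 and 283 CPM with MR. The diets did not overlap, as for 8.76% of all tested genes (4.05% with MR higher). The log2 fold change was 0.27 ± 0.08 (edgeR adjusted p = 0.268). DESeq2 called it (adjusted p = 0.0421). The authors' deposited table, on the same libraries and so no separate evidence, gave a log2 fold change of 0.27 (adjusted p = 0.0394). DESeq2 called 406 of the 15507 genes listed for MC38.

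BPD6 tumors measured 233, 203, 231 and 203.5 CPM of Sgk1 in control and 309, 211 and 323 CPM with MR. MR replicate 2 lay among the controls and the other MR tumors above them (log2 fold change 0.37 ± 0.15, edgeR adjusted p = 0.9997). In CD8+ T cells the values were 127, 135 and 102 CPM in control and 140.2, 104 and 125 CPM with MR (log2 fold change 0.02 ± 0.16, edgeR adjusted p = 0.947). The tumor models did not differ past the test in their Sgk1 response (MC38 minus BPD6 -0.10 ± 0.17, edgeR adjusted p = 0.921), but the tables name different Sgk1 transcripts for them, and whether both counts cover the same RNA is not known.

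The Sgk1 window below is shown because it was the only one of 14 promoter windows of these genes to hold an exact palindromic glucocorticoid response element. Imperfect copies and sites outside the windows were not searched. The element searched was the hexamer AGAACA, then 3 bases of any kind, then the hexamer's reverse complement, on both strands of the 250 bases before each RefSeq start (GRCm38.p6). Such a palindrome lies in 3 of 32851 mouse promoter windows (0.00913%), and the hexamer alone in 16.1%. The window, chr10:21993640-21993889 on the plus strand, lies between the Sgk1 starts named by the tables and overlaps 0 exon bases in GENCODE. Capitals mark each match to the hexamer, and the palindrome begins 189 bases before the window's own start and 965 bases before the transcript start named in BPD6.

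Sgk1 promoter window: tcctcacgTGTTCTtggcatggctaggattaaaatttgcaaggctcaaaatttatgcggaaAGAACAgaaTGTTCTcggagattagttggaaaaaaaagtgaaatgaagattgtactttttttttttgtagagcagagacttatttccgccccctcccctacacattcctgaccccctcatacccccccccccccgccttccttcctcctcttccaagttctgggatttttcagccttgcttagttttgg

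Windows were found for Sgk1 (6), Tsc22d3 (3), Fkbp5, Hsd11b1, Klf9, Mt1 and Mt2 (1 each). No window was found for Nr3c1 or Zbtb16, so these genes were not searched. The hexamer occurred in 3 of the Sgk1 windows and in 1 Tsc22d3 window, and in none of those of Fkbp5, Hsd11b1, Klf9, Mt1 or Mt2. A match describes letters and no binding was measured.

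Klf9 (chromosome 19, 23141226 to 23168129) encodes a Krüppel-like repressor that answers to glucocorticoids and to the daily clock. Its CD8+ T cell values were 3.03, 3.26 and 2.82 CPM in control and 4.96, 5.41 and 4.14 CPM with MR. The groups did not overlap, as for 22.4% of all tested genes (11.5% with MR higher), and Klf9 had 42 to 86 estimated counts per library. The log2 fold change was 0.67 ± 0.35 (edgeR adjusted p = 0.340). Both Klf9 and Fkbp5 were highest in MR replicate 2, then MR replicate 1 and MR replicate 3, and lowest in control replicate 3. Control replicates 1 and 2 changed places between the genes. Fkbp5 was picked for its rise in these libraries, so the shared order is a description only. With diets pooled, Pearson r of the 2 genes was 0.968 in CD8+ T cells, -0.118 in MC38 and 0.154 in BPD6. MC38 tumors held 21.01 ± 3.30 CPM in control and 18.2 ± 5.80 CPM with MR (SD, n = 4 each; log2 fold change -0.21 ± 0.24, edgeR adjusted p = 0.694).

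BPD6 tumors measured 40.8, 70.3, 55.4 and 82.1 CPM of Klf9 in control and 65.8, 66.9 and 113 CPM with MR. The log2 fold change was 0.40 ± 0.28 (edgeR adjusted p = 0.9997) and fell to 0.09 without MR replicate 4. The Klf9 response did not differ between tumor models past the test (MC38 minus BPD6 -0.61 ± 0.39, edgeR adjusted p = 0.859). The tables name 1 Klf9 transcript throughout. Its mean level was 62.2 to 82.0 CPM in BPD6, 18.2 to 21.01 CPM in MC38 and 3.04 to 4.84 CPM in CD8+ T cells, and these 3 ranges were further apart than the SDs of neighbouring groups.

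Zbtb16 (chromosome 9, 48651797 to 48836225) encodes PLZF, a zinc finger factor of innate-like lymphocytes that glucocorticoids induce in several tissues. Its values in CD8+ T cells were 3.39, 2.33 and 2.28 CPM in control and 1.04, 1.56 and 0.72 CPM with MR. All MR libraries were below all controls, at -1.27 ± 0.52 on the log2 scale (edgeR adjusted p = 0.222), on 12 to 66 estimated counts per library. Of all tested genes in these cells, 10.9% had no overlap with MR lower. The 6 NK cell markers summed to 513, 514 and 625 CPM in control and 402, 496 and 390.0 CPM in the same MR libraries, with 5 of 6 lower and 1 past edgeR. The 7 B cell markers summed to 191, 57.3 and 287 CPM and to 69.4, 114 and 74.1 CPM, with 7 of 7 lower and 0 past edgeR. The part of NK or other innate-like cells in the Zbtb16 difference was not tested.

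In the tumors Zbtb16 was near 1 CPM. MC38 measured 0.11, 0.69, 1.07 and 0.39 CPM in control and 0.29, 3.02, 2.84 and 0.82 CPM with MR (log2 fold change 1.64 ± 0.79, edgeR adjusted p = 0.379). The higher values were those of MR replicates 2 and 3, which also had the highest Hsd11b1 and fat marker sums. BPD6 measured 0.22, 0.47, 0.27 and 1.81 CPM in control and 1.02, 0.69 and 0 CPM with MR (log2 fold change -0.29 ± 1.08, edgeR adjusted p = 0.9997), and its sign changed without MR replicate 4 (0.30).

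Mt1 (chromosome 8, 94178883 to 94180327) and Mt2 (chromosome 8, 94172618 to 94173567) encode metallothioneins, small metal-binding proteins. They are induced by zinc through the factor MTF1 and, in mice, by glucocorticoids. Their coding sequences have 183 bases each and are 79.2% identical, and the longest run of bases shared by both transcripts is 20. How reads that match both genes were counted is not given in the sources used here.

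Bases around each metal response element core are shown because both genes lie side by side and are read here as a pair. The core searched was TGCACNC or TGCGCNC on both strands of the 250 bases before each start. It was found 3 times in the Mt2 window (94172368 to 94172617) and 1 time in the Mt1 window (94178839 to 94179088). The Mt2 window ends before the GENCODE start of its named transcript at 94172664. The windows are placed unlike, so the number of cores is not compared between the genes. All 3 Mt2 stretches lie whole within bases annotated as exon in GENCODE (30 of 30 bases), and the Mt1 stretch overlaps such bases by 3. Exons of any gene on either strand were counted. The Mt1 window belongs to a start inside the RefSeq gene span, which begins at 94178883, and it runs past the GENCODE start of the named transcript at 94179082. At least 3 matches occur in 1.26% of 32851 promoter windows, and at least 1 in 21.4%. Capitals mark the core, sequences are from RefSeq promoter windows (GRCm38.p6), and all are on the plus strand of chromosome 8.
Mt2, chr8:94172384-94172413: agcatcgcctcTGCACCCggcccctcgggc
Mt2, chr8:94172479-94172508: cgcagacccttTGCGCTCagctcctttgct
Mt2, chr8:94172557-94172586: ggggggagggcGTGTGCAggctctgtccca
Mt1, chr8:94179055-94179084: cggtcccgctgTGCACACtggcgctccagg

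Mt1 levels in MC38 were 162, 196, 196 and 154 CPM in the controls and 318, 178, 237 and 205 CPM with MR. MR replicate 2 lay among the controls and the other 3 above them, and the log2 fold change was 0.41 ± 0.18 (edgeR adjusted p = 0.345). Mt2 measured 136, 160.0, 172 and 133 CPM in control and 232, 145, 230.2 and 182 CPM with MR in the same tumors. The log2 fold change of Mt2 was 0.39 ± 0.16 (edgeR adjusted p = 0.322), and again only MR replicate 2 was within the control range.

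In BPD6, Mt1 measured 127, 96.8, 97.9 and 185 CPM in control and 189.9, 145 and 126 CPM with MR (log2 fold change 0.28 ± 0.25, edgeR adjusted p = 0.9997). Mt2 measured 286, 178, 177 and 326 CPM in control and 307, 272 and 368 CPM with MR (0.38 ± 0.24, edgeR adjusted p = 0.9997). The diets overlapped for both genes. Tests of the difference between models gave 0.14 ± 0.32 for Mt1 (edgeR adjusted p = 0.942) and 0.01 ± 0.30 for Mt2 (edgeR adjusted p = 0.996).

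CD8+ T cells held little of either gene. Mt1 measured 0.67, 2.93 and 6.85 CPM in control and 3.001, 4.43 and 1.501 CPM with MR (log2 fold change -0.21 ± 0.62, edgeR adjusted p = 0.879). The sign of this value turned without control replicate 3 (0.73) or MR replicate 3 (0.11), and with limma-voom (0.28). Mt2 was at most 0.72 CPM in any CD8 library and was too low to be tested.

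The share of Mt1 and Mt2 within a library differed between the tumor models. Divided by transcript length (549 bases for Mt1 and 511 for Mt2), the ratio of Mt1 to Mt2 levels was 0.957 to 1.27 over the 8 MC38 libraries. It was 0.319 to 0.577 over the 7 BPD6 libraries, so the models did not overlap. Mt1 was above Mt2 per length in 7 of 8 MC38 libraries and in 0 of 7 BPD6 libraries, on either diet. This ratio was chosen after the values were seen and has no test.

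Other genes of the pathway were read as 6 lists. They held 66 tested genes in CD8+ T cells and 75 in each tumor model, of which edgeR called 5, 0 and 0 and DESeq2 9, 3 and 0. Over all tested genes edgeR called 1.41% in CD8+ T cells. Over all listed genes DESeq2 called 559 of 13509 in CD8+ T cells and 406 of 15507 in MC38. Chaperones and cochaperones that hold the receptor ready had the most calls of the 6 lists in CD8+ T cells. Of 12 members 4 fell, 0 rose and 8 did not pass, with a median log2 fold change of -0.51, beside 0.01 over all tested genes, of which 0.818% fell past edgeR.

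The 4 that fell were Stip1, which hands clients from Hsp70 to Hsp90, Fkbp4, the cochaperone that Fkbp5 competes with, the chaperone gene Hsp90aa1 and Ptges3, which stabilises the hormone-bound complex. Stip1 had 209 ± 56.7 CPM on control chow and 101 ± 4.60 CPM on MR (SD, n = 3 per diet), a difference of -1.05 ± 0.18 (edgeR adjusted p = 0.0125). Fkbp4 had 185 ± 34.3 and 109 ± 8.99 CPM (-0.76 ± 0.16, edgeR adjusted p = 0.0316). Hsp90aa1 changed by -0.83 ± 0.19 (edgeR adjusted p = 0.0434) and Ptges3 by -0.66 ± 0.15 (edgeR adjusted p = 0.0438). In the same cells Fkbp5 had its log2 fold change of 1.11. Fkbp5 was picked for its rise, so its opposite sign to Fkbp4 is a description only. Without control replicate 1 or MR replicate 1 edgeR called 0 of the 12, and without MR replicate 3 it called 1, while the list median stayed between -0.59 and -0.41 over the 6 fits that left out 1 library. Markers of other cells also stood apart by diet in these libraries. Red cell markers summed to 28.1 to 60.8 CPM in control and 9.005 to 24.6 CPM in MR libraries, and dendritic cell markers to 38.0 to 56.6 and 25.7 to 36.7 CPM. With the lower T cell and NK cell sums given above, their part in the differences of the CD8 lists was not tested.

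In the tumors 0 of the 12 chaperone genes passed edgeR, and 0 had an unadjusted p under 0.05 (medians 0.0014 in MC38 and -0.13 in BPD6). Of all tested genes, 14.1% in MC38 and 1.85% in BPD6 had such a p. The genes of lowest p were Stub1 (0.26), Dnajb1 (0.26) and Bag1 (0.21) in MC38, and Hspa4 (-0.15), Ptges3 (-0.19) and Fkbp4 (-0.19) in BPD6. Among 11 coregulator genes Carm1, an arginine methyltransferase that assists nuclear receptors, rose in CD8+ T cells. It had 47.5 ± 3.72 CPM on control chow and 78.3 ± 14.1 CPM on MR (0.72 ± 0.16, edgeR adjusted p = 0.0379), and it was called in 1 of the 6 fits that left out a library, the fit without MR replicate 2. Crebbp (0.77) and Med1 (0.71) did not pass there, where 0.591% of all tested genes rose past edgeR. In MC38, Med1 (-0.54), Carm1 (-0.25) and Ncor1 (-0.68) had the lowest p, with 11 of 11 lower (median -0.22), 0 past edgeR and 4 at an unadjusted p under 0.05. Of all tested genes in MC38, 6.81% were lower at such a p, and their median log2 fold change was 0.02 over all tested genes. BPD6 had Smarca4 (-0.13) and Nrip1 (-0.27), with 0 past edgeR and 0 at an unadjusted p under 0.05.

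Further induced targets of the receptor, 25 genes, did not pass edgeR in any material. In MC38, 20 of 24 tested were higher with MR (median log2 fold change 0.33, beside 0.02 over all tested genes), and 7 were higher at an unadjusted p under 0.05, beside 7.3% of all genes. Anxa1, an anti-inflammatory annexin gene, had 236 ± 20.8 CPM in the controls and 337 ± 26.5 CPM with MR (SD, n = 4 per diet; 0.51 ± 0.10, edgeR adjusted p = 0.243). Nfkbia, encoding the NF-kappa-B inhibitor, stood at 0.42 ± 0.13 (edgeR adjusted p = 0.259) and Glul, encoding glutamine synthetase, at 0.61 ± 0.21 (edgeR adjusted p = 0.292). Macrophage markers were higher in the same MC38 tumors, with 9 of 9 at a median of 0.76, and their part in the list was not tested.

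In BPD6, 19 of 24 were higher (median 0.22, beside -0.01 over all tested genes), with 3 at an unadjusted p under 0.05 beside 1.07% of all genes. The median was 0.11 without MR replicate 1 and 0.13 without control replicate 2. Keratinocyte markers summed to 1532 CPM in MR replicate 1 and 394 CPM in control replicate 3, against 3.09 to 4.85 CPM in the other 5 BPD6 libraries, and their part in the BPD6 lists was not tested. Dusp1, encoding a phosphatase that shuts off stress kinases, had 46.0 ± 14.3 CPM in control (n = 4) and 88.1 ± 29.2 CPM with MR (n = 3), or 0.94 ± 0.28 on the log2 scale (edgeR adjusted p = 0.9997). Cebpb (0.35) and Cebpd (0.55), genes of C/EBP factors, did not pass either. In CD8+ T cells 10 of 21 were higher (median -0.03, and -0.13 to 0.09 when single libraries were left out). The genes of lowest p there were Nfkbia (-0.53), Rgs2 (-0.67) and Tnfaip3 (-0.39), none past edgeR. At an unadjusted p under 0.05, 2 were higher and 4 lower, beside 8.5% higher and 8.83% lower of all tested genes.

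Inflammatory genes that the receptor represses were lower in 7 of 9 tested members in CD8+ T cells (median -0.94) and higher in 10 of 14 in MC38 (0.14) and 11 of 14 in BPD6 (0.58), where 50.4%, 53.6% and 48.4% of all tested genes were higher. None passed edgeR. Several members were low. In CD8+ T cells Ifng, the gene at the median, had 3.90 CPM in control and 2.03 CPM with MR. Tnf (25.1 CPM in control), Icam1 (77.2) and Vcam1 (169) stood at -0.46, -0.29 and 0.0055 there. In BPD6 controls Il1a, Il6, Ccl3 and Cxcl2 had 0.32, 0.55, 0.90 and 0.50 CPM. Ptgs2 (568 CPM) stood at 0.49, Ccl2 (197) at -0.22 and Vcam1 (292) at -0.07 in BPD6. Leaving out control replicate 3 moved the CD8 median to -0.53, and leaving out MR replicate 1 moved it to -0.61. That of MC38 was 0.04 without MR replicate 3, 0.27 without MR replicate 1, 0.27 without MR replicate 2 and 0.22 without control replicate 4, and that of BPD6 was 0.88 without MR replicate 4. The part of the macrophage markers, higher in MC38, and of the NK cell markers, lower in CD8+ T cells, was not tested. The genes of lowest p were Ccl4 (-1.51), Cxcl10 (-1.73) and Tnf (-0.46) in CD8+ T cells, Icam1 (0.65), Il12b (1.19) and Vcam1 (0.39) in MC38, and Il1a (1.39), Ccl4 (1.28) and Il6 (0.82) in BPD6. At an unadjusted p under 0.05 there were 2 in each material, lower in CD8+ T cells and higher in both tumor models. The shares of all tested genes in the same direction were 8.83% in CD8+ T cells, 7.3% in MC38 and 1.07% in BPD6.

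**Figure D4:**
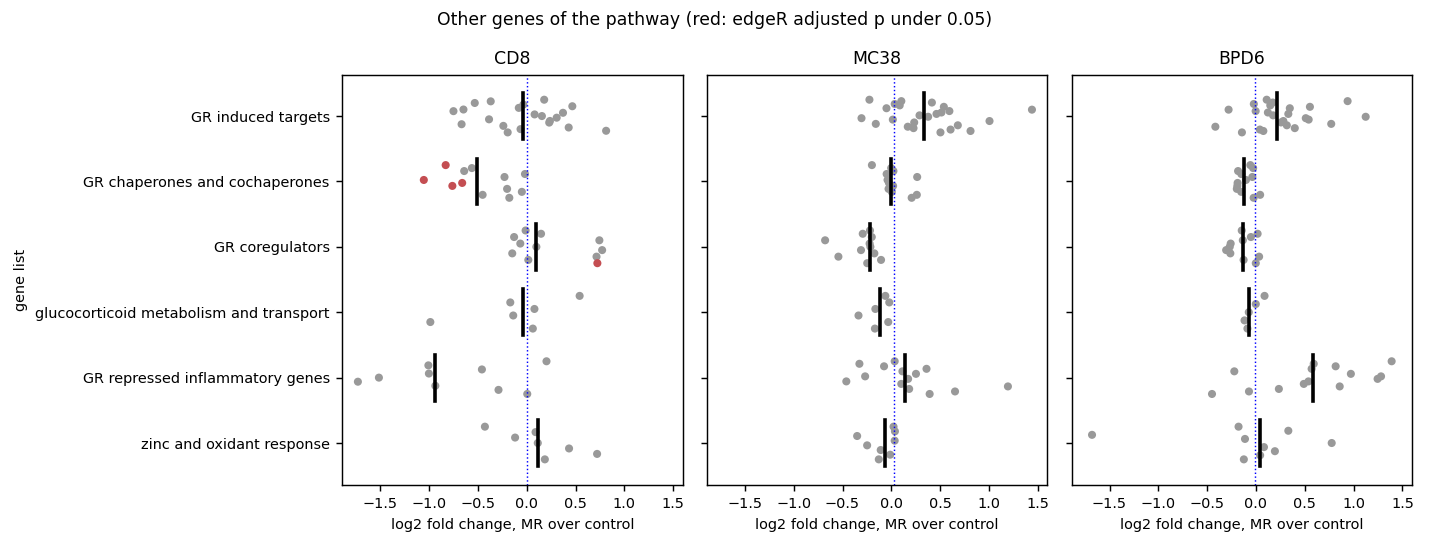
Log2 fold change of MR over control (x axis) of each tested gene (points) of the 6 pathway lists (y axis) in CD8+ T cells, MC38 and BPD6, with list medians as black bars and the median of all tested genes as a dotted line. Red marks an edgeR adjusted p under 0.05, seen for 4 chaperone genes and Carm1 in CD8+ T cells and for 0 genes in the tumor panels.

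Genes of glucocorticoid metabolism and transport did not pass edgeR. H6pd, which supplies the cofactor of the enzyme made by Hsd11b1, measured 38.5 ± 5.19 CPM on control chow and 56.0 ± 9.97 CPM on MR in CD8+ T cells (log2 0.54 ± 0.17, edgeR adjusted p = 0.117). It stood at -0.06 in MC38 and 0.09 in BPD6. The other genes of lowest p were Cyp11a1 (-0.99) and Abcb1a (-0.17) in CD8+ T cells, Abcb1b (-0.16), Nr3c2 (-0.34) and Star (-0.17) in MC38, and Srd5a1 (-0.12) and Abcb1b (-0.07) in BPD6. H6pd in CD8+ T cells was the 1 gene of this list at an unadjusted p under 0.05, with 0 in either tumor model. Of all tested genes in CD8+ T cells, 8.5% were higher at such a p.

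Zinc and oxidant response genes, read beside Mt1 and Mt2, did not pass edgeR either. In MC38 the genes of lowest p were Slc39a10 (-0.35), Gclc (-0.25) and Txnrd1 (-0.13). Hmox1, encoding heme oxygenase, had 80.6 ± 24.04 CPM in control (n = 4) and 138 ± 21.4 CPM with MR (n = 3) in BPD6 (log2 fold change 0.78 ± 0.22, edgeR adjusted p = 0.9997), beside Mt3 (-1.68) and Txnrd1 (-0.12). Those of CD8+ T cells were Gclm (0.72), Gclc (0.43) and Mtf1 (-0.43). At an unadjusted p under 0.05 there were 3 in CD8+ T cells, 1 in MC38 and 1 in BPD6. The shares of all tested genes at such a p were 17.3%, 14.1% and 1.85%.

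Genes whose profile most resembled that of a member were ranked over the 21 libraries, after centring the log2 CPM of each material on its own mean. The points share libraries, diet groups and depth, and likeness is given by Pearson r over 10148 genes with a mean of at least 1 CPM in each material. Among the closest to Fkbp5 were Dph1 (0.87), Phf14 (0.87), Ap1s2 (0.83) and Slc31a1 (0.83). Closest to Tsc22d3 were Hes1 (0.789), Dazap2 (0.765), Mir3076 (0.764), Hyi (0.758) and Zfp672 (0.751). Among the closest to Mt1 were Epn2 (0.846), Mrpl20 (0.813), Fth1 (0.809) and Mmp14 (0.797). Ranked by Spearman rho instead, Epn2 came at rank 253 (0.60) and Fth1 at rank 116 (0.649) for Mt1, and Slc31a1 at rank 131 (0.61) for Fkbp5.

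The members themselves were not among these genes. Klf9 had a likeness of 0.396 to Fkbp5, Tsc22d3 of 0.0941, Sgk1 of 0.0722 and Nr3c1 of -0.300. For Tsc22d3 the highest among the members was 0.329, with Mt1. Mt2 and Zbtb16 were too low in 1 or more materials to be ranked.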

How the data were processed

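The authors deposited 1 table per material of estimated counts per gene and library, not normalized, all multiples of 0.5. With aligner, counter and strand setting not given in the sources used here, overlapping antisense genes may share reads. Per the submitters' processing notes the build was GRCm38. The log2 fold change and adjusted p-value quoted for Sgk1 are from the authors' deposited table. Per-library values in 21 more columns were left unused. BPD6 columns have a different prefix from the labels, and its MR columns, numbered 1, 2 and 4, were matched to the group only.

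Counts were rounded and each table was tested with edgeR 4.0.16 in R 4.3.3 (filterByExpr, TMM, quasi-likelihood test, Benjamini-Hochberg adjustment), checked on simulated data. Genes tested numbered 12348 in CD8+ T cells, 14034 in MC38, 13978 in BPD6 and 14257 for the difference between tumor models. Alternatives were RLE factors, no filter, DESeq2 1.42.0, limma-voom (limma 3.58.1), a replicate block (for BPD6 by column number, added after seeing the data) and leaving out each library. Log2 CPM used a pseudocount of 0.5. Named genes were the members, the list genes past the test or, up to 3, of lowest p, and the 5 genes of highest likeness to Fkbp5, Tsc22d3 and Mt1, predicted genes left out; a few genes under this rule are not reported here. Members, lists and tests were chosen with earlier results of these data known. Replicates differed by more than sampling noise (lowest chi-square 12.2 per degree of freedom).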

Additional observations from a re-analysis of the deposited data

Results flagged for a closer look

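Zbtb16 in BPD6 control replicate 4 measured 1.81 CPM and the next control library 0.47 CPM. The gap was 0.843 of the range of the group, above Dixon's critical value for 4 samples. It was the 1 library found in 27 groups of 4 that were looked at, where chance flags about 1 group in 20. The muscle marker sum of that library was 5182 CPM, against 92.6 to 774 CPM in the other BPD6 controls, and its part in the Zbtb16 level was not tested.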

How the results depend on the processing

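Among the 6 genes not picked for their rise, 0 passed under any fit, except Sgk1 in MC38 with DESeq2 (adjusted p = 0.0421). The count of genes called in CD8+ T cells, 174 in all, was 559 with DESeq2 and 7 (without MR replicate 1) to 290 (without MR replicate 2) when single libraries were left out, and 36 without control replicate 1. MC38 had 406 calls and BPD6 1 with DESeq2, and 0 with edgeR or limma-voom; the cause was not tested. For Tsc22d3 in CD8+ T cells the log2 fold change ran from -0.14 to 0.30 over fits leaving out a library (-0.10 without MR replicate 2), and for Fkbp5 in BPD6 from -0.15 to 0.0067. Deviations of same-numbered libraries had r of -0.228 to 0.0676 in CD8+ T cells and -0.305 to 0.397 in MC38. Differently numbered MC38 pairs reached 0.515. With so few libraries these values do not settle whether libraries were paired. With the replicate block the calls were 74 in CD8+ T cells, 1 of them among the 66 list genes (5 without the block), and 0 in MC38; Mt1 in CD8+ T cells turned to 0.18. For BPD6, whose MR column numbers differ from the labels, a replicate block on the column numbers was chosen after seeing the data and gave 0 calls (same-numbered r -0.135 to 0.059). The tumor model difference had 0 calls among 14257 genes, with 742 at an unadjusted p under 0.05; no fit run changed this. Members and list genes under 5 CPM rest on few counts, which limits their precision.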
